A study of Sus scrofa with 48 samples.

Results

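SEPHS1, PHYH, OPTN, YME1L1 and ACBD5 lie close together on pig chromosome 10, and their transcript levels were examined in the liver of 48 pigs. The 5 genes were chosen from values of the line comparison described below, as adjacent genes with probes that differed between pigs from the low and the high RFI (residual feed intake) line. Their differences between lines are therefore a description without a test. Probes were assigned to a gene by the gene name of the scanner output or by their transcript accession. They are 5 of 10626 named genes with a tested probe. The array held 17 probes for them among 60305 different ones, and 16 of the 17 were tested, among 45236 tested probes in all. The second YME1L1 probe, O7881, was well above background on 2 of 48 arrays and was not tested.

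The pigs were purebred Large White barrows from lines divergently selected for residual feed intake, which is the feed eaten beyond that predicted for maintenance and production. In each line, 12 pigs received a high-fat high-fiber (HF) diet and 12 a low-fat low-fiber (LF) diet, both offered ad libitum. The RNA of each liver carried a single dye (Cy3) on a separate array. Precision is limited by the number of arrays. For line and diet, P sets the difference against the spread between these pigs, which were treated as independent. Each line is 1 selected population, so that the line difference cannot be told apart from other differences between both populations.

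The 5 genes work in different compartments of the cell. PHYH (phytanoyl-CoA hydroxylase) starts the alpha-oxidation of phytanic acid, a branched fatty acid of dietary origin, inside peroxisomes, and ACBD5 is a peroxisomal membrane protein that binds acyl-CoA of very long chains and tethers peroxisomes to the endoplasmic reticulum. YME1L1 is an ATP-dependent protease of the mitochondrial inner membrane, OPTN (optineurin) is a receptor that brings ubiquitinated cargo to autophagosomes, and SEPHS1 is a homolog of the enzyme that makes selenophosphate for selenoproteins. In the reference table of Sscrofa11.1, which was used here for names and order only since the files state no build, 12 genes stand in the order from SEPHS1 over PHYH, OPTN and YME1L1 to ACBD5. Of the 7 others in this stretch, UCMA had a probe on the array, which was not among the tested probes.

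The probe sequences, 60 bases long as given in the scanner output, are shown 5′ to 3′ for the probes on which the following results turn. A_72_P440081 stands for PHYH and A_72_P381923 for SEPHS1 in the correlations between pigs, and A_72_P554596 is the PHYH probe with the largest difference between lines.
PHYH A_72_P440081: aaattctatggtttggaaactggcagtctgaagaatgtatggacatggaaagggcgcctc
PHYH A_72_P554596: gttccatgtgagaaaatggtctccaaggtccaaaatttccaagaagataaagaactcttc
SEPHS1 A_72_P381923: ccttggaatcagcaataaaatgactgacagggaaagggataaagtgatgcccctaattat
A pair of OPTN probes shares a stretch of 28 bases with 1 mismatch, A20G from A_72_P177566 to O9522, counted from 1 at the 5′ end of the stretch. The capital marks this base.
OPTN A_72_P177566, shared stretch: gcatcatttaagtgctgacAttttactt
OPTN O9522, shared stretch: gcatcatttaagtgctgacGttttactt
The PHYH probes A_72_P199102 and A_72_P599398 share 57 bases without a mismatch, so that they are not independent measurements.

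Levels are log2 intensities relative to the median of the tested probes of each array, and a value of 0 is that median. The share of probes well above background was 65.8% to 77.2% over the arrays. All 8 tested hepatocyte markers, such as ALB and TTR, were well above background on all arrays. So were all 8 of Kupffer cells and macrophages, 7 of stellate cells and fibroblasts and 5 of cholangiocytes, so this alone does not single out hepatocytes. In level the hepatocyte markers matched the tissue label. The log2 of their sum ran from 12.82 to 13.50, against 7.28 to 8.54 for Kupffer cells and macrophages, the next highest. Each of 6 slides carried 2 arrays of every group, and scanning took 2 days with 24 arrays on each. In RNA of whole liver, fewer cells of a type and less RNA per cell cannot be told apart.

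PHYH was lower in the low RFI line than in the high RFI line with each of its 6 probes. For A_72_P440081, levels in the low RFI line ran from 6.64 to 7.96 with a median of 7.27, and in the high RFI line from 6.70 to 8.11 with a median of 7.63. The lines overlapped, and the high-line median exceeded the level of 19 of 24 low-line pigs. The log2 fold-change (FC, low minus high RFI line) was -0.33 (SE 0.10, n = 24 per line), with -0.35 in pigs fed the HF diet and -0.30 with the LF diet. The largest difference, that of A_72_P554596, was -0.53 (SE 0.12, n = 24 per line). Its levels ran from 3.55 to 5.27 (median 4.48) in the low RFI line and from 4.29 to 5.45 (median 5.10) in the high RFI line. The other 4 probes had log2 FC between -0.38 and -0.32.

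YME1L1, with 1 tested probe, was also under-expressed in the low RFI line, by a log2 FC of -0.23 (SE 0.05). Its levels ran from 3.26 to 3.98 (median 3.51) in the low RFI line and from 3.38 to 4.17 (median 3.78) in the high RFI line. The difference was -0.35 among arrays scanned on the first day and -0.11 among those of the second day.

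For each of the other 3 genes, 1 probe met the cut-offs of P under 0.01 and FC over 1.1 and the rest did not. For SEPHS1, O13694 was over-expressed in the low RFI line, with a log2 FC of 0.94 (SE 0.17). Its levels ran from -5.02 to -2.22 (median -3.09) in the low RFI line and from -5.32 to -2.82 (median -4.17) in the high RFI line. Its signal stood well above background for 21 of 24 low-line pigs but only for 9 of 24 high-line pigs. Its log2 FC was 0.18 with the normexp background correction. The other SEPHS1 probe, A_72_P381923, was well above background on all arrays and had a log2 FC of 0.15 (SE 0.10). Given line and diet, the 2 SEPHS1 probes had a correlation between pigs of -0.04.

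For OPTN, O9522 was under-expressed by a log2 FC of -0.49 (SE 0.11). Levels with O9522 ran from 3.09 to 4.19 (median 3.56) in the low RFI line and from 3.33 to 5.35 (median 4.02) in the high RFI line. The other 3 OPTN probes had log2 FC of -0.14 (SE 0.09) for A_72_P177566, -0.04 (SE 0.11) for A_72_P559396 and -0.05 (SE 0.09) for A_72_P743995. With A_72_P177566, which shares the stretch with the mismatch, levels ran from 3.54 to 4.47 (median 4.06) in the low RFI line and from 3.78 to 5.23 (median 4.07) in the high RFI line.

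For ACBD5, O8374 was under-expressed by a log2 FC of -0.24 (SE 0.07), with levels from 0.80 to 1.68 (median 1.19) in the low RFI line and from 0.73 to 1.99 (median 1.36) in the high RFI line. A_72_P026591 had a log2 FC of -0.18 (SE 0.07) and CUST_308_PI427286967 a log2 FC of 0.10 (SE 0.09).

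**Figure D1:**
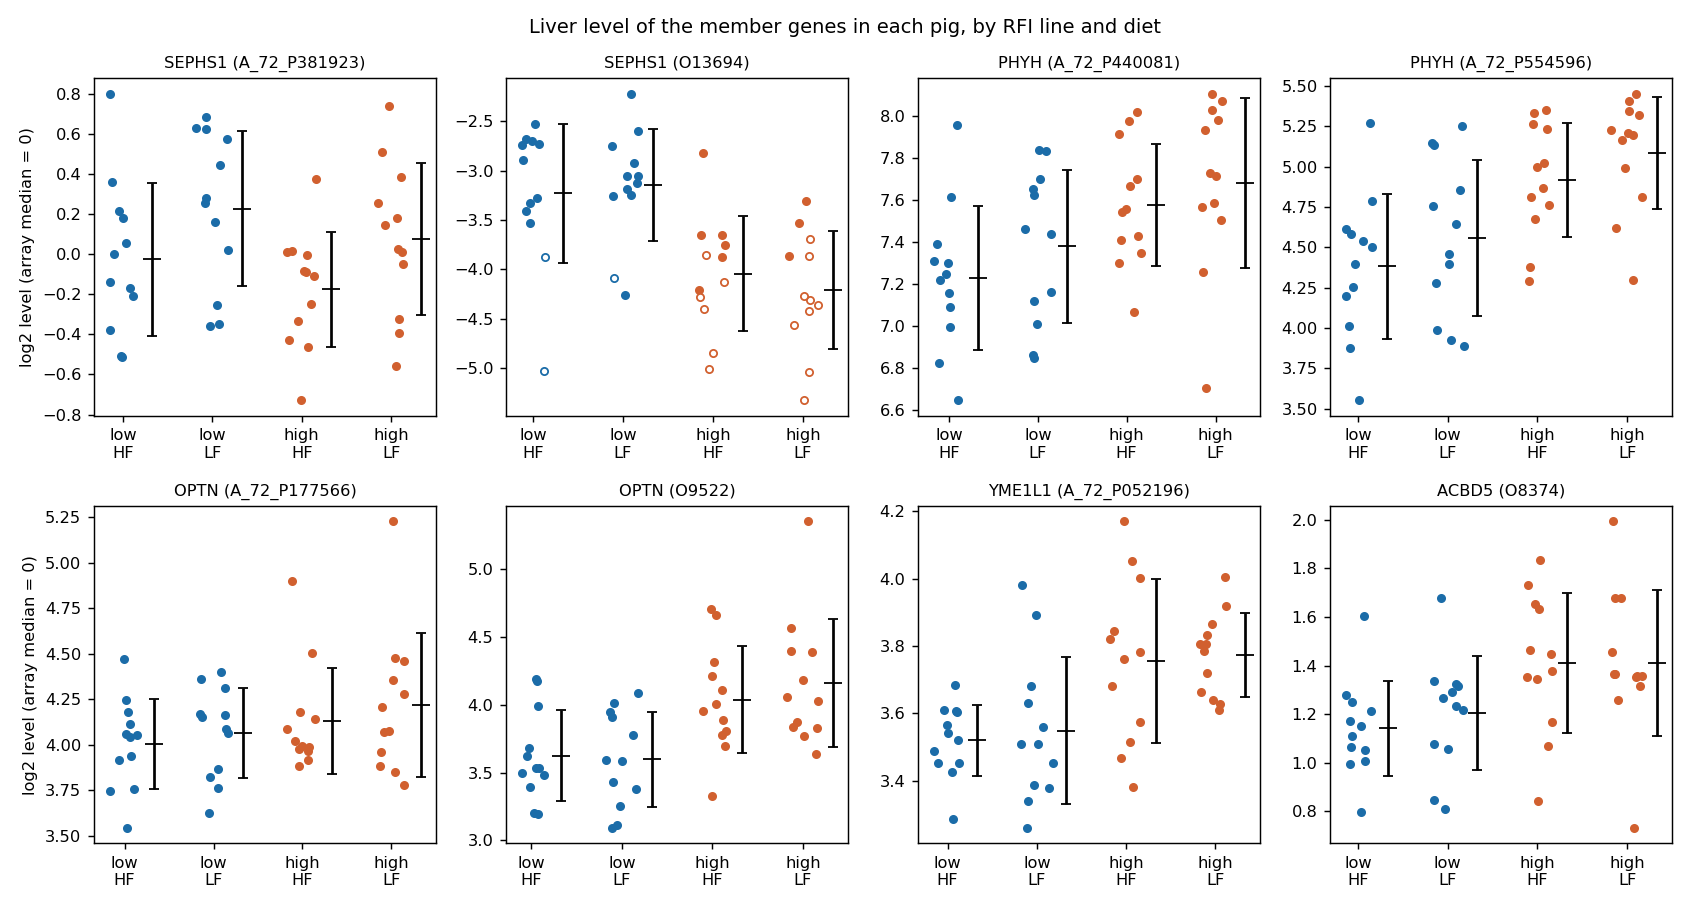
Each point is the level of 1 pig on the log2 scale (array median at 0), by RFI line (blue low, orange high) and diet (HF or LF), for 8 probes of the 5 genes, and the bars show the mean and SD of the 12 pigs of a group. Open points are arrays on which the probe was not well above background, which occur for SEPHS1 O13694 and mostly in the high RFI line, and the lines overlap in every panel.

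At the cut-offs of P under 0.01 and FC over 1.1 in limma's linear model, 9 of the 16 member probes were lower and 1 was higher in the low RFI line. Of all tested probes, 3.49% were lower and 3.42% were higher at these cut-offs. Since the comparison chose the genes, nothing is read from these counts. The member probe just inside the cut-offs was PHYH A_72_P680165 (log2 FC of -0.32, P = 0.00597) and the one just outside was ACBD5 A_72_P026591 (P = 0.0167). With the 24 arrays of the first scan day 8 member probes met the cut-offs. With those of the second day 2 did, namely PHYH A_72_P554596 (log2 FC of -0.49) and SEPHS1 O13694 (1.06).

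**Figure D2:**
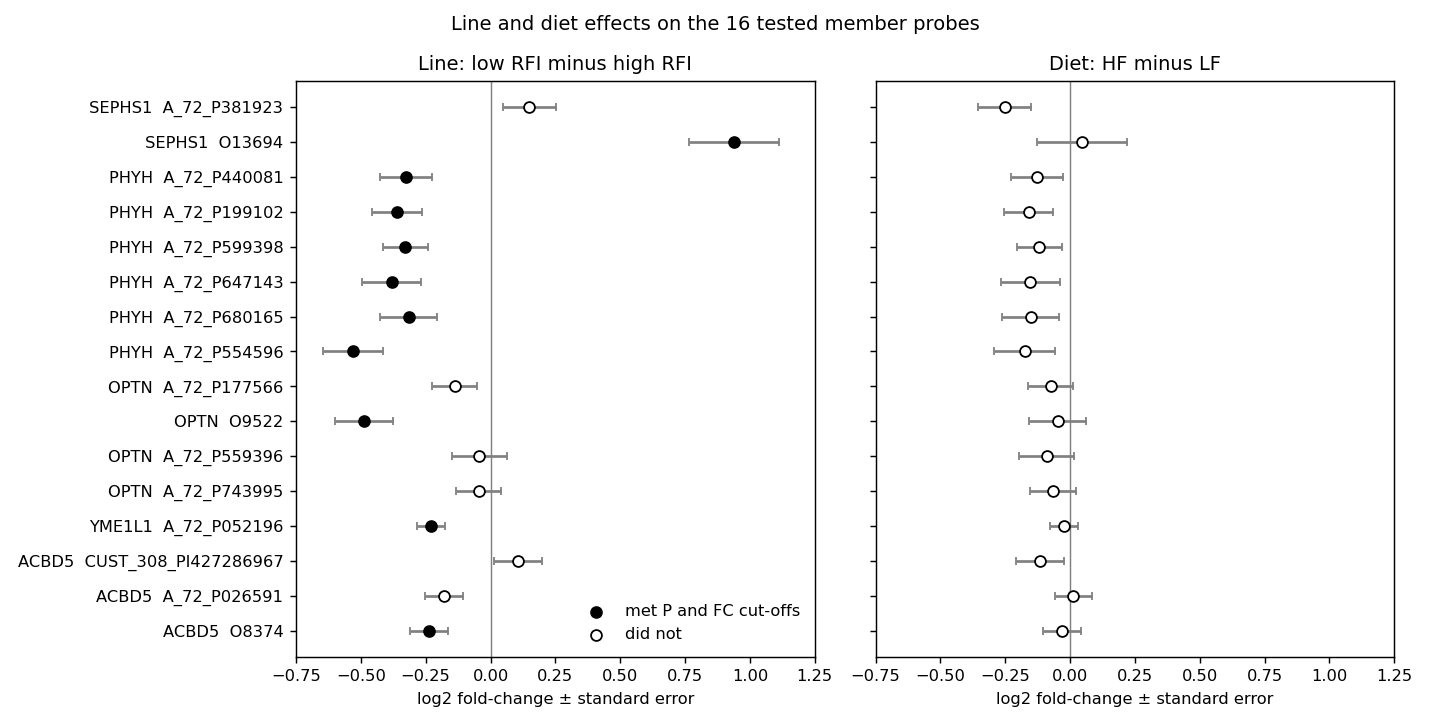
Log2 FC with SE of the 16 tested member probes for line (left, low minus high RFI) and diet (right, HF minus LF), with filled points for probes that met the cut-offs. The 6 PHYH probes lie between -0.53 and -0.32 for line, SEPHS1, OPTN and ACBD5 each have a single filled point for line, and no point is filled for diet.

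The 2 OPTN probes that share bases were compared pig by pig. The log2 value of O9522 minus that of A_72_P177566 ran from -0.65 to 0.00 (median -0.52) in the low RFI line and from -0.56 to 0.16 (median -0.11) in the high RFI line. In each line these differences fell into 2 clusters. In the low RFI line, 18 pigs lay between -0.65 and -0.35 and 6 pigs between -0.28 and 0.00. In the high RFI line, 16 pigs lay between -0.56 and -0.02 and 8 pigs between 0.09 and 0.16, and 1 of the 24 pigs lay within the range of the 18. O9522 was thus low relative to A_72_P177566 in most, but not all, pigs of the low RFI line. The part of the mismatch in it was not tested.

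**Figure D3:**
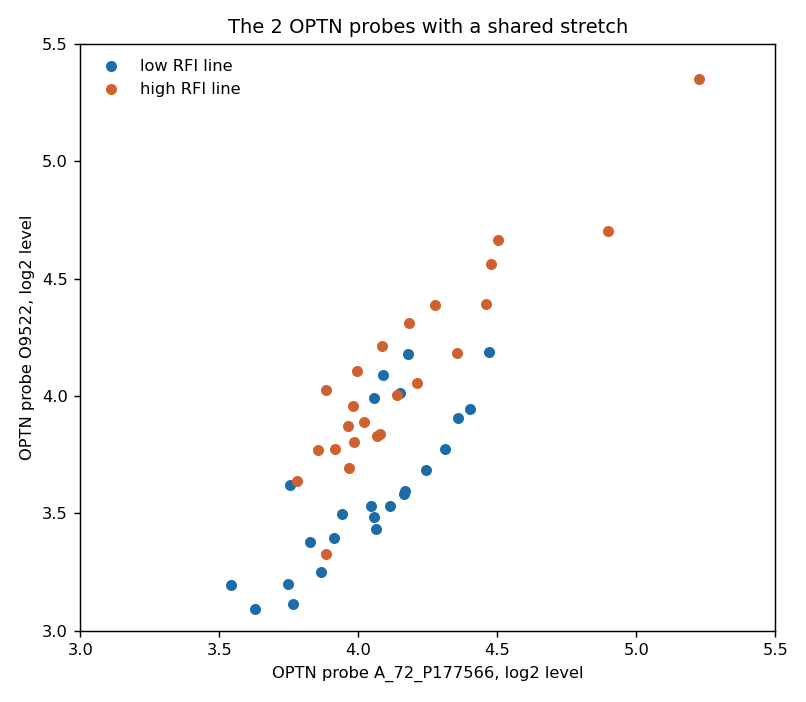
Each point is 1 pig, with the log2 level of OPTN probe A_72_P177566 on the x axis, that of O9522 on the y axis, and colour for RFI line. Most pigs from the low RFI line (18 of 24) lie in a band below the others, where 1 pig from the high RFI line lies too.

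Diet did not choose the genes, and its effect was tested. With limma, 0 of the 16 member probes met the cut-offs for diet (4.61% of all tested probes did), and 1 had an unadjusted P under 0.05. This was SEPHS1 A_72_P381923, with a log2 FC of -0.25 (HF minus LF, SE 0.10, limma P-BH = 0.243), where P-BH is the P adjusted over all tested probes by Benjamini-Hochberg. The log2 FC was below 0 for 14 of the 16 probes, and for PHYH it lay between -0.17 and -0.12 with its 6 probes. The interaction of line and diet was at P under 0.01 for 0 of the 16 member probes and for 0.376% of all tested probes with limma, and for 0 member probes at an unadjusted P under 0.05. The difference between lines in diet effect lay between -0.25 and 0.15 on the log2 scale.

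The co-variation between pigs within each line was then described. Given line and diet, the 6 PHYH probes rose and fell together, the correlation of their 15 pairs being between 0.78 and 0.99. The 4 OPTN probes correlated between 0.48 and 0.90, and the ACBD5 probes O8374 and A_72_P026591 at 0.88. The third ACBD5 probe, CUST_308_PI427286967, correlated with these at 0.26 and 0.31. Between probes of different genes, 95 correlations ran from -0.57 to 0.68 with a median of 0.02, and correlations above and below 0 both occurred.

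**Figure D4:**
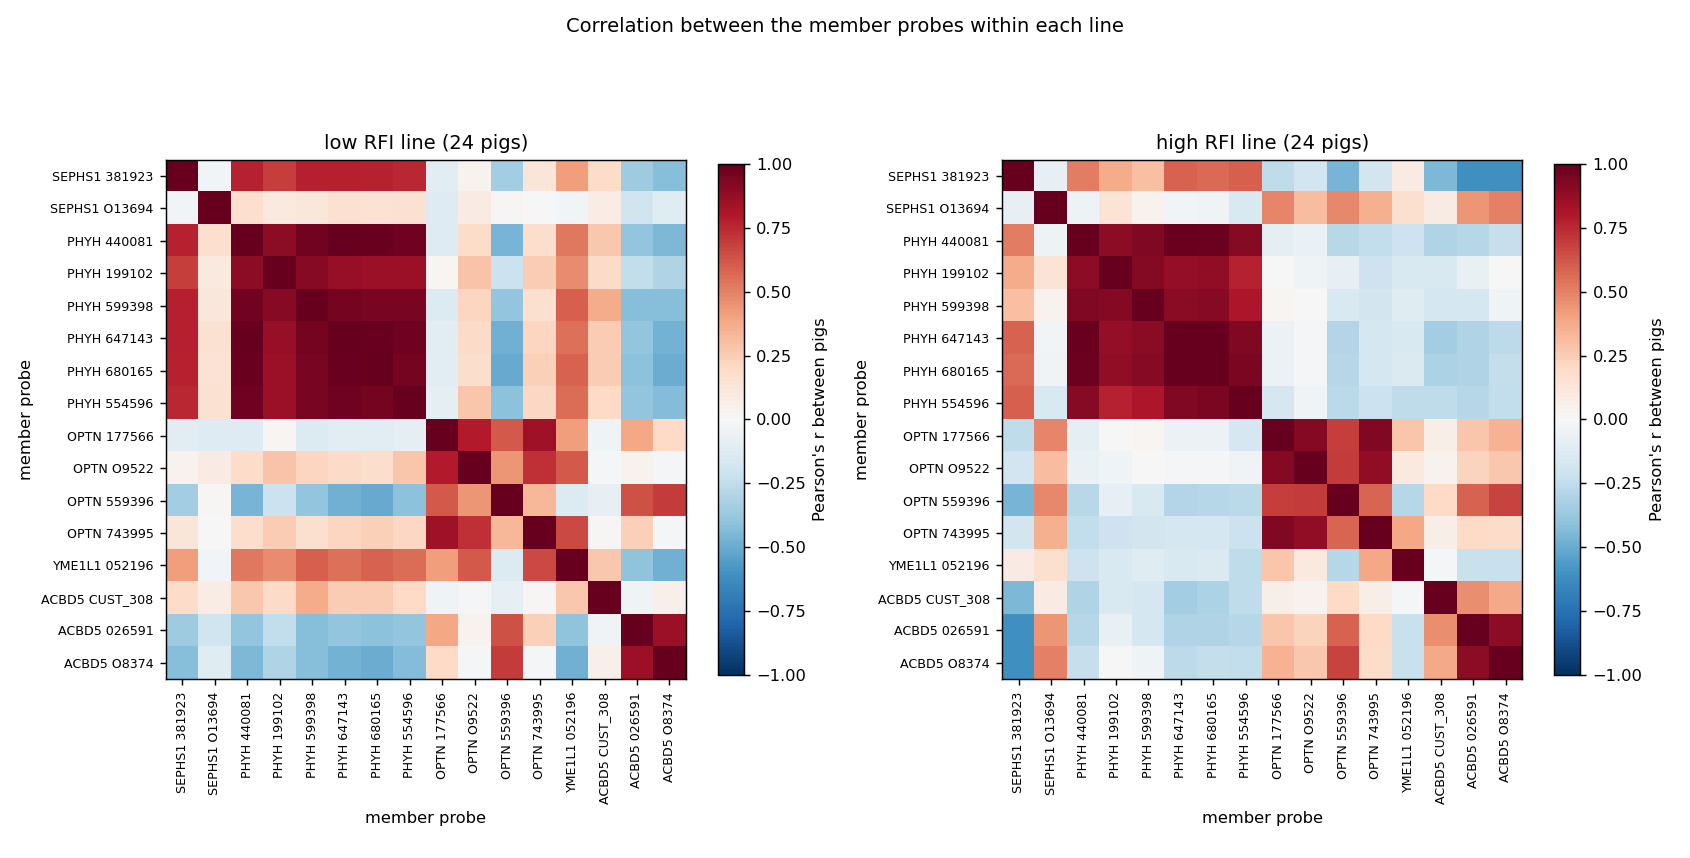
Pearson's r between all tested member probes over the 24 pigs of the low RFI line (left) and of the high RFI line (right), on a colour scale from -1 to 1. The PHYH probes form a dark block in both lines, SEPHS1 A_72_P381923 is positive with it in both, and YME1L1 is positive with PHYH in the low RFI line and weakly negative in the high RFI line.

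The brightest probe on average then stood for each gene, and 10 pairs were examined in each line with 2-sided permutation tests (100000 resamples), 20 correlations in all. For OPTN, 2 pigs from the high RFI line formed a separate cluster, and its correlations in that line were computed over the other 22 pigs. The permutation P was under 0.05 for 6 of the 20, unadjusted for their number.

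Among these brightest probes, PHYH and SEPHS1 were the pair with the closest co-variation. In the low RFI line, Pearson's r was 0.77 (permutation P = 3e-05) and Spearman's rho was 0.80 (permutation P = 2e-05), and r was 0.74 without the 2 pigs farthest from the median of SEPHS1. In the high RFI line, r was 0.52 (permutation P = 0.0102) and rho was 0.61 (permutation P = 0.0018), but r was 0.35 (permutation P = 0.111) without 2 such pigs, so that Pearson's r in this line rests in part on them. With the other 5 PHYH probes r lay between 0.30 and 0.60 in this line. Among the arrays of each scan day, r was 0.79 and 0.76 in the low RFI line and 0.77 and 0.30 in the high RFI line. In the limma fit over all pigs with line and diet as covariates, the partial correlation of SEPHS1 with PHYH was 0.64 (limma P-BH = 2.30e-04 over all tested probes). With SEPHS1 as the reference, all 6 PHYH probes had a positive partial correlation of 0.47 to 0.68 at a P-BH under 0.05. These values hold for SEPHS1 A_72_P381923. With O13694 in its place and A_72_P554596 for PHYH, the partial correlation was 0.04, and with the mean of all probes of each gene it was 0.40, neither of which passed a P-BH of 5%.

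PHYH and YME1L1, which were both lower in the low RFI line, co-varied in that line. There r was 0.53 (permutation P = 0.00735) and rho was 0.45 (permutation P = 0.0267), and r was 0.51 without the 2 pigs farthest from the median of PHYH. This did not hold within both scan days, since r was -0.06 among the 12 pigs of the first day and 0.73 among the 12 pigs of the second day. In the high RFI line, r was -0.21 (permutation P = 0.323) and rho was -0.24 (permutation P = 0.253), with -0.34 and -0.09 on the 2 days. Permuting the line labels gave P = 0.00371 for the difference in r of 0.74, 1 of 10 such differences. In limma's test of slopes that differ between the lines, the P-BH over all tested probes was 0.653 with YME1L1 and 0.559 with PHYH as the reference.

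**Figure D5:**
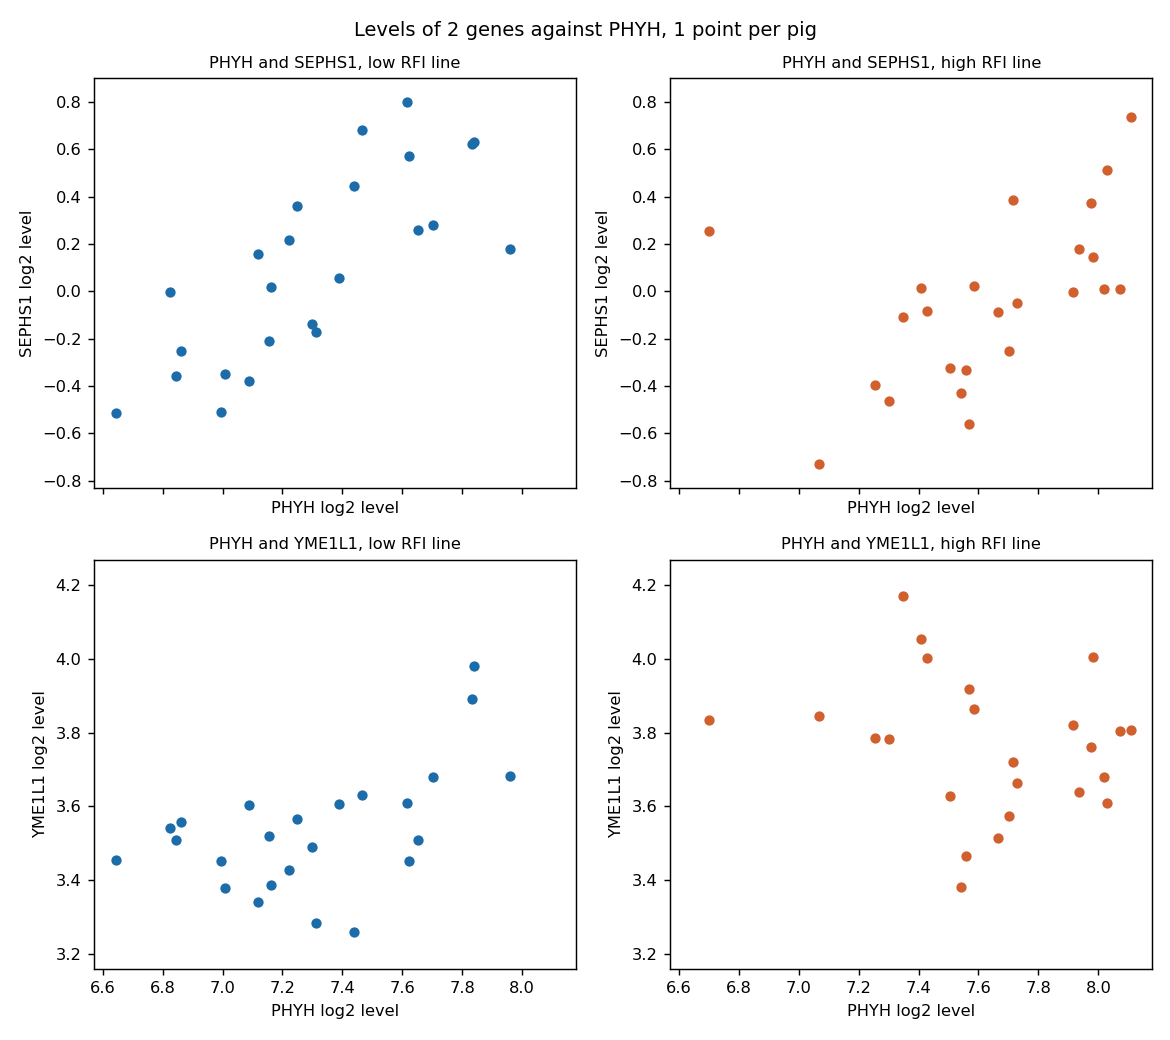
Level of SEPHS1 (top) and YME1L1 (bottom) against that of PHYH, on the log2 scale with array median at 0, with 1 point per pig, for the low RFI line (left) and the high RFI line (right). SEPHS1 rises with PHYH in both lines, with 1 pig of low PHYH level apart in the high RFI line, whereas YME1L1 rises with PHYH in the low RFI line (r of 0.53) and not in the high RFI line (r of -0.21).

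Over all pigs, given line and diet, the partial correlation of PHYH and YME1L1 was 0.13 (limma P-BH = 0.649 with PHYH as the reference). That of OPTN and YME1L1 was 0.33, and within lines OPTN and YME1L1 had an r of 0.42 (permutation P = 0.0420) and a rho of 0.46 (permutation P = 0.0237) in the low RFI line, and r was 0.55 without 2 pigs. The r on the 2 days was 0.20 and 0.49. In the high RFI line r was 0.27 (permutation P = 0.232) and rho was 0.25 (permutation P = 0.269) over 22 pigs. SEPHS1 and YME1L1 had an r of 0.42 (permutation P = 0.0404) and a rho of 0.38 (permutation P = 0.0698) in the low RFI line, and r was 0.41 (permutation P = 0.0569) without the 2 farthest pigs, -0.11 on the first day and 0.69 on the second. SEPHS1 and ACBD5 had an r of -0.45 (permutation P = 0.0264) and a rho of -0.45 (permutation P = 0.0302) in the high RFI line, and r was -0.36 (permutation P = 0.0951) without 2 pigs. In the low RFI line, r for this pair was 0.18 (permutation P = 0.400) and rho was 0.28 (permutation P = 0.177). In the limma fits with line and diet, the 9 pairs other than SEPHS1 and PHYH had partial correlations between -0.24 and 0.33, the smallest P-BH being 0.105. With single probes of other choice, SEPHS1 A_72_P381923 correlated negatively with ACBD5 O8374 (partial r of -0.57, limma P-BH = 5.16e-04), ACBD5 A_72_P026591 (-0.51, limma P-BH = 0.00278) and OPTN A_72_P559396 (-0.48, limma P-BH = 0.00523). YME1L1 correlated positively with OPTN A_72_P743995 (0.48, limma P-BH = 0.00856). The highest partial r between probes of different genes, 0.68, was that of OPTN A_72_P559396 and ACBD5 O8374. For these, r was 0.70 in the low and 0.67 in the high RFI line. With ACBD5 A_72_P026591, the partial r of OPTN A_72_P559396 was 0.61.

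At a limma P-BH under 5%, 8.09% of the other tested probes correlated positively and 3.40% negatively with PHYH, given line and diet. For SEPHS1 these shares were 16.7% and 8.65%, for YME1L1 9.23% and 7.30%, for OPTN 1.58% and 1.19%, and for ACBD5 0.301% and 0.0597%. These shares do not rank the genes firmly. The number of probes called with PHYH was 128 on the second scan day and 6048 with the median signal, with YME1L1 0 on the first day and 22032 with normexp, and with OPTN 0 on the second day and 1727 with quantile normalization. Those of SEPHS1 and ACBD5 depended on the probe, since 1 probe in all was called with SEPHS1 O13694 as the reference and 9885 with ACBD5 O8374.

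Among the genes most like it were PPP2R4 (partial r of 0.79), an activator of protein phosphatase 2A, PCK2 (0.79), the mitochondrial phosphoenolpyruvate carboxykinase, SCP2 (0.78), the peroxisomal thiolase that follows in the breakdown of branched acyl-CoA, and PRDX6 (0.77), a peroxiredoxin. Of 27 tested genes of the peroxisome list, 13 correlated positively with PHYH and 0 negatively. The median partial correlation of the list was 0.37, against 0.03 over all tested probes. This was not particular to PHYH, since with SEPHS1 13 genes of the list were positive and 0 negative, with a median of 0.36. The probe of highest intensity of SCP2 was at 0.72, that of the thiolase ACAA1 at 0.63, catalase (CAT) at 0.62 and HSD17B4, the bifunctional enzyme, at 0.58. HACL1, which cleaves the product of PHYH in the same pathway, was at 0.45 (limma P-BH = 0.0211), and PEX7, the receptor that imports PHYH into peroxisomes, at 0.44 (limma P-BH = 0.0278). The acyl-CoA oxidase ACOX3 (-0.14) and the carnitine octanoyltransferase CROT (-0.01) were among those that did not pass.

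SEPHS1 (A_72_P381923) was most like SELENOK (partial r of 0.85), a selenoprotein of the endoplasmic reticulum, ECH1 (0.85), which isomerizes enoyl-CoA in peroxisomes and mitochondria, SDHB (0.85), a subunit of succinate dehydrogenase, FAM3A (0.85) and GCDH (0.84), the glutaryl-CoA dehydrogenase of mitochondria. For SELENOK 6 of 7 probes were positive at a P-BH under 5% and 1 probe had a partial r of -0.55. Of 20 tested genes of selenoprotein synthesis and selenoproteins, 6 correlated positively and 0 negatively with SEPHS1. The median was 0.21, against 0.01 over all tested probes, of which 16.7% were positive. With PHYH, 6 genes of the list were positive and 1 negative, and the median was higher, at 0.30. The 6 with SEPHS1 included SELENOK, SELENOF (0.62) and SEPSECS (0.46), which makes selenocysteine on its tRNA. SEPHS2, the selenophosphate synthetase, was at 0.22 (limma P-BH = 0.285).

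YME1L1 was most like FRA10AC1 (partial r of 0.81), the nucleoporin NUP155 (0.77), RAB11A (0.77), a GTPase of recycling endosomes, ARV1 (0.76), which takes part in sterol transport, and NSMAF (0.75). The probes agreed for RAB11A (8 of 8 positive) and NSMAF (3 of 3) but not for FRA10AC1 (2 of 4, the lowest at -0.06) or NUP155, where the other probe was at -0.40. Of 14 tested genes of proteolysis in the mitochondrial inner membrane, 6 correlated positively and 0 negatively with YME1L1, the median being 0.25 against -0.01 over all tested probes. With SEPHS1, 7 genes of the list were positive and 0 negative, and the median was higher, at 0.39, and with PHYH 3 were positive and 1 was negative. Those with YME1L1 included the prohibitin PHB2 (0.70), the rhomboid protease PARL (0.58), the metalloprotease OMA1 (0.48), the translocase subunit TIMM17A (0.48) and STOML2 (0.41). Some markers of cell types moved with YME1L1. Of 8 tested hepatocyte markers 4 correlated negatively with YME1L1, ALB being at -0.62, and of 5 adipocyte markers 3 correlated positively, CIDEC being at 0.56. The log2 of the summed level of the hepatocyte markers had a partial correlation of -0.57 with YME1L1 and that of the adipocyte markers one of 0.57. CIDEC was the brightest adipocyte marker (mean level 4.13, against 0.19 for LEP, the next), so that this sum mostly follows CIDEC. LEP (-0.25) and ADIPOQ (0.19) did not pass with YME1L1. The first sum ran from 12.99 to 13.50 and from 13.12 to 13.50 in the low RFI line with the HF and LF diet, and from 12.82 to 13.41 and from 13.14 to 13.42 in the high RFI line. The second ran from 3.79 to 4.94 and from 3.93 to 5.58 in the low RFI line, and from 3.45 to 4.82 and from 3.80 to 5.06 in the high RFI line. Some markers also moved with SEPHS1 and PHYH. For SEPHS1 the sum of the adipocyte markers was at 0.56, with PLIN1 at 0.67 and CIDEC at 0.55, the 2 of 5 that passed. LEP (-0.35) and ADIPOQ (0.16) did not pass with SEPHS1. The sum of 9 T and NK cell markers, which ran from 4.73 to 5.19, was at 0.45 with SEPHS1. LCK, the brightest of the 9 (mean level 4.37, against 2.01 for GZMB, the next), was at 0.63. LCK alone of the 9 passed, and the median of this list was -0.12. The endothelial markers went both ways with SEPHS1, PECAM1 being at -0.48 and KDR at 0.37 (limma P-BH = 0.0413). The median of their list was 0.11 and their sum was at -0.08. For PHYH the sum of 7 stellate cell and fibroblast markers, which ran from 5.66 to 6.57, was at -0.43, with COL1A1 at -0.50, and PLIN1 was at 0.42. The part of these markers in the co-variation was not tested. The log2 median intensity of the array had a partial correlation of 0.40 with YME1L1, and its part was not tested either.

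OPTN was most like GPR180 (partial r of 0.73), TLR3 (0.67), the receptor for double-stranded RNA, and PSME2 (0.66), an activator subunit of the proteasome induced by interferon. It varied against CPB2 (-0.71), a carboxypeptidase of plasma made by hepatocytes, and C1ORF93 (-0.66). Of 19 tested autophagy genes, HTT was at 0.50 (limma P-BH = 0.0270) and PINK1, the kinase that marks damaged mitochondria, at -0.53 (limma P-BH = 0.0159), and the others did not pass. TBK1, the kinase that phosphorylates OPTN, was at 0.41 (limma P-BH = 0.109). The median of the list was 0.01, against -0.03 over all tested probes.

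ACBD5 (CUST_308_PI427286967) was most like the antiproliferative gene BTG2 (partial r of 0.67, 3 of 3 probes positive), UAP1 (0.63, 2 of 9 probes), the receptor BMPR2 (0.62, 1 of 4) and CDKN2AIPNL (0.62, 1 probe), and varied against ZNF79 (-0.63, 1 of 4, with another probe at 0.22). Of 11 tested genes of acyl-CoA binding and contact with the endoplasmic reticulum, 0 passed a P-BH of 5% with limma, and 2 had an unadjusted P under 0.05. VAPA (-0.02) and VAPB (-0.12), the partners of ACBD5 in this contact, did not pass. The median was -0.09, against 0.00 over all tested probes.

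For line and diet, these 5 lists held 91 tested genes without the members. The cut-offs for line were met by 6 of the 91, against 3.42% higher and 3.49% lower of all tested probes, and those for diet by 4 of the 91, against 4.61%. Pooled over the 5 lists, both counts are near these shares and are no result about the lists. In the low RFI line 4 of the 27 tested peroxisomal genes were over-expressed, against 3.42% of all tested probes, and 0 were under-expressed, against 3.49%. The 4 were CROT (log2 FC of 0.50), ACOX3 (0.27), PEX6 (0.22) and DECR2 (0.18), and their number was not tested. GPX3, a glutathione peroxidase of plasma (-0.71), and the autophagy receptor SQSTM1 (-0.20) were under-expressed in the low RFI line. With limma, 0 of the 11 genes of acyl-CoA binding and 0 of the 14 of mitochondrial proteolysis were called for line, and 0 had an unadjusted P under 0.05 in both lists. The median log2 FC of the lists was between -0.04 and 0.03, against 0.01 over all tested probes. The 4 genes that met the cut-offs for diet were PEX5 (-0.18), DNM1L (-0.15), TXNRD2 (-0.16) and ULK1 (0.43), with limma P-BH between 0.102 and 0.166, and none passed a P-BH of 5%.

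The 5 genes on each side of the stretch gave 11 tested probes of 5 genes, and 0 of these probes met the cut-offs for line with limma. With 3.42% higher and 3.49% lower among all tested probes, so few probes say nothing about the flanking genes. An unadjusted P under 0.05 was found for APBB1IP A_72_P289694 (log2 FC of 0.11, P = 0.0144), while its other 2 probes were at 0.00 and -0.02. PRPF18, with 2 genes between it and SEPHS1 in the table, had log2 FC of 0.02 and -0.01 with its 2 probes, and ABI1, next to ACBD5, had 0.01 and 0.09. Within lines, PRPF18 A_72_P089651 correlated with YME1L1 (partial r of 0.59, limma P-BH = 0.00195) and with SEPHS1 (0.42, limma P-BH = 0.0295), APBB1IP A_72_P289694 varied against YME1L1 (-0.53, limma P-BH = 0.00645) and ABI1 A_72_P089351 against PHYH (-0.47, limma P-BH = 0.0257).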

How the data were processed

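Liver RNA of 48 pigs was measured on single-colour Agilent arrays. The authors deposited the scanner output, whose intensity per spot is background-subtracted and not normalized, and log2 values that equal the median signal centred on each array, made with R 2.10.0 per the labels. Here 483 outlier spots were removed, log2 was taken of the scanner intensities, and the array median was subtracted. The test covered probes that were well above background on 12 or more arrays. Line, diet and their interaction were fitted with limma 3.58.1 in R 4.3.3. Cut-offs were P under 0.01 and FC over 1.1, or a P-BH of 5%. Co-variation was fitted with the level of 1 gene beside line and diet. Within-line correlations used permutation tests (numpy 2.4.6), and clusters mclust 6.1.1. The steps were tested on simulated data. Apart from planted effects, its noise was independent between probes, so it cannot show how co-variation calls behave among correlated probes. The labels do not say how the pigs relate to each other.

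The members and the gene lists were chosen with earlier results of these data known. All member probes, genes on both sides, the 5 genes with the largest absolute partial correlation per member and the listed genes were eligible for naming, and gene lists used the brightest probe. Some eligible genes are not reported here. Alternatives were an unmoderated model, other centring, normalization, background and filters, the deposited values, slide or scan day as a block, and other probes or covariates. The authors' log2 values were used as an alternative only.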

Additional observations from a re-analysis of the deposited data

Results flagged for a closer look

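The co-variation of 3 pairs differed between the lines when line labels were permuted on values centred in each line (2-sided permutation tests, 100000 resamples, 10 pairs). For PHYH and YME1L1 the correlation in the low RFI line minus that in the high RFI line was 0.74 (permutation P = 0.00371), and over the 12 settings tried it lay between 0.60 and 0.78 with permutation P from 0.0013 to 0.0291. These settings did not split the arrays by scan day. Among arrays of the first day r was -0.06 in the low and -0.34 in the high RFI line, and among those of the second day 0.73 and -0.09, so that the lines lay closer on the first day. For SEPHS1 and ACBD5 the difference was 0.63 (permutation P = 0.0199), with permutation P under 0.05 in 10 of the 12 settings and a range from -0.80 to 0.87. For PHYH and ACBD5 it was 0.58 (permutation P = 0.0448), with permutation P under 0.05 in 7 of the 12 and a range from 0.00 to 0.88. Both differences are those of ACBD5 CUST_308_PI427286967, and most settings kept the brightest probe. With ACBD5 O8374, r with SEPHS1 was -0.42 in the low and -0.61 in the high RFI line, and with PHYH -0.45 and -0.23. With ACBD5 A_72_P026591 these were -0.36 and -0.62, and -0.40 and -0.28. Those P are unadjusted, and limma's slopes that differ between lines did not pass a P-BH of 5% for any pair of members.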

How the results depend on the processing

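The count of member probes called for line stayed at 9 or 10 under the planned settings, and 0 were called for diet or interaction in any setting. Chosen after the data were seen, the analysis of the second scan day called 2 for line and that of the first day 8. The 2 directions of the pair SEPHS1 and PHYH were the only calls among 20 ordered pairs. There were 4 calls with normexp and with the median signal, where OPTN and YME1L1 passed too, 0 with the mean of all probes and 0 with the probes of smallest line P, the latter chosen after the data were seen. Of the 20 correlations within lines, 3 had a permutation P under 0.05 with the mean of all probes.

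Directions that reversed were not called for diet: YME1L1 was at 0.0119 with normexp and 0.0548 on the first day, SEPHS1 O13694 at -0.0719 with normexp, -0.0341 with the median signal and -0.12 on the second day, and ACBD5 A_72_P026591 at -0.0391 on the second day. With the probes of smallest line P, pigs outside the larger cluster of a probe were left out. That cluster held 12 of 24 pigs for PHYH and 17 for ACBD5 in the high RFI line, and 20 for SEPHS1 in the low RFI line. There r was -0.46 for SEPHS1 and PHYH and 0.56 for SEPHS1 and ACBD5 in the high RFI line. In the low RFI line it was -0.0601 for SEPHS1 and YME1L1, -0.24 for SEPHS1 and ACBD5 and -0.43 for PHYH and ACBD5. Over all pigs, r was -0.15 and 0.51 for the 2 pairs in the high RFI line. For SEPHS1 in the low RFI line it was -0.03 with YME1L1 and -0.12 with ACBD5. With the mean of all probes, r was -0.21 for SEPHS1 and ACBD5 and -0.21 for PHYH and ACBD5 in the low RFI line and -0.0133 for OPTN and YME1L1 in the high RFI line. For SEPHS1 and YME1L1 in the high RFI line, r was -0.0494 with the 75th percentile and -0.0616 with quantile normalization. The difference between lines for SEPHS1 and ACBD5 was -0.19 with the mean of all probes. It was -0.80 with the probes of smallest line P, again without the pigs outside the larger cluster. The cause was not tested.

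Probes called as co-varying ranged from 1 to 12395 for SEPHS1, from 128 (second day) to 6048 for PHYH, from 0 (second day) to 1727 for OPTN, from 0 (first day) to 22032 (normexp) for YME1L1 and from 0 (first day) to 9885 for ACBD5, and interactions from 94 to 272 against 170. Dim signal limits SEPHS1 O13694. No paired analysis was possible because the replicate numbers only follow the order of the samples.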
